A study of Mus musculus with 20 samples.

Results

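The retina of mice with 1 copy of the dominant allele CrxRip was compared with the retina of mice that lack Crx, both at postnatal day 21 (P21). The 2 CrxRip/+ and the 2 Crx-/- samples, taken by their labels, are 4 of the 20 samples of the study, and all 1497 genes of the P21 table were used, of 1865 genes in the tables of both ages. The study asked how a CRX allele that goes with congenital blindness disturbs rod development, and it sequenced the RNA of whole retina from wild-type, CrxRip/+, CrxRip/Rip, Crx-/- and Nrl-/- mice at postnatal day 2 (P2) and P21. Every mouse was C57BL/6J, each group had 2 samples and each sample was pooled from 2 frozen retinas. The mutants carry their change from the germ line, so no cell of the retina is spared, and no treatment was given in the labels. The comparison sets a mutant that still has a normal copy of Crx beside a mutant with none, and thus shows which genes differ between a dominant allele and plain loss.

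Crx is a homeobox factor that is made in rods and cones and that binds short TAATCC and TAAGCC sequences before the genes of the light response. It acts downstream of Otx2, a related homeobox factor that commits precursors to the photoreceptor fate, and together with the leucine zipper factor Nrl and the nuclear receptor Nr2e3, which turn on rod genes and hold back cone genes. Without Crx, photoreceptors are born but form no outer segments, the stacks of membrane that hold the visual pigment, and they are lost with age.

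Gene levels were deposited as FPKM, which scales fragments by transcript length and by the mapped fragments of the library, rounded to 1 decimal. Differences are given as CrxRip/+ minus Crx-/- on the log2(FPKM + 1) scale, on which changes of genes near or below 1 FPKM are understated. A gene was called at a limma adjusted p under 0.05. Where wild type is not named, words such as higher, lower, rose and fell compare CrxRip/+ with Crx-/-. The table holds only genes that the authors had found different in at least 1 of their comparisons, and 335 of them were past the authors' own limits in CrxRip/+ against Crx-/-. Over the genes of the table, summed FPKM were 28022.9 and 27469.9 in CrxRip/+ and 28384 and 26837.8 in Crx-/-, beside 55335.3 and 53395.9 in wild type. The depth of the libraries is unknown. Nothing in the labels says that the samples of a group come from separate litters, so the p-values measure the spread between these samples, and with 2 against 2 an exact permutation test cannot go below 0.33 (two-sided). In whole retina, fewer cells of a type and less RNA per cell cannot be told apart.

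The retinas of the 2 mutants differed in the rod regulators first of all. CrxRip/+ had almost none of the mRNA of Nrl, Nr2e3, Samd7 and Cnga1, which Crx-/- kept, while it had more mRNA of Ankrd33, Rcvrn, Vtn and of genes of the outer segment and the photoreceptor synapse. Of the 1497 genes, 448 (29.9%) were higher and 340 (22.7%) lower in CrxRip/+, and 709 passed in neither direction. The counts for each gene list below are to be read beside these shares, and no list was tested against them. The median difference of all genes was 0.06. Differences of at least 1 were called for 107 higher and 104 lower genes, differences of at least 2 for 11 higher and 31 lower genes, and differences of at least 3 for 3 higher and 11 lower genes. The 2 samples of each group did not overlap for 619 genes above (41.3%) and 480 genes below (32.1%). The authors' deposited table, at its own adjusted p under 0.05, called 461 genes higher and 339 lower, of which 407 and 311 were called the same way by limma and 0 the opposite way.

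**Figure D1:**
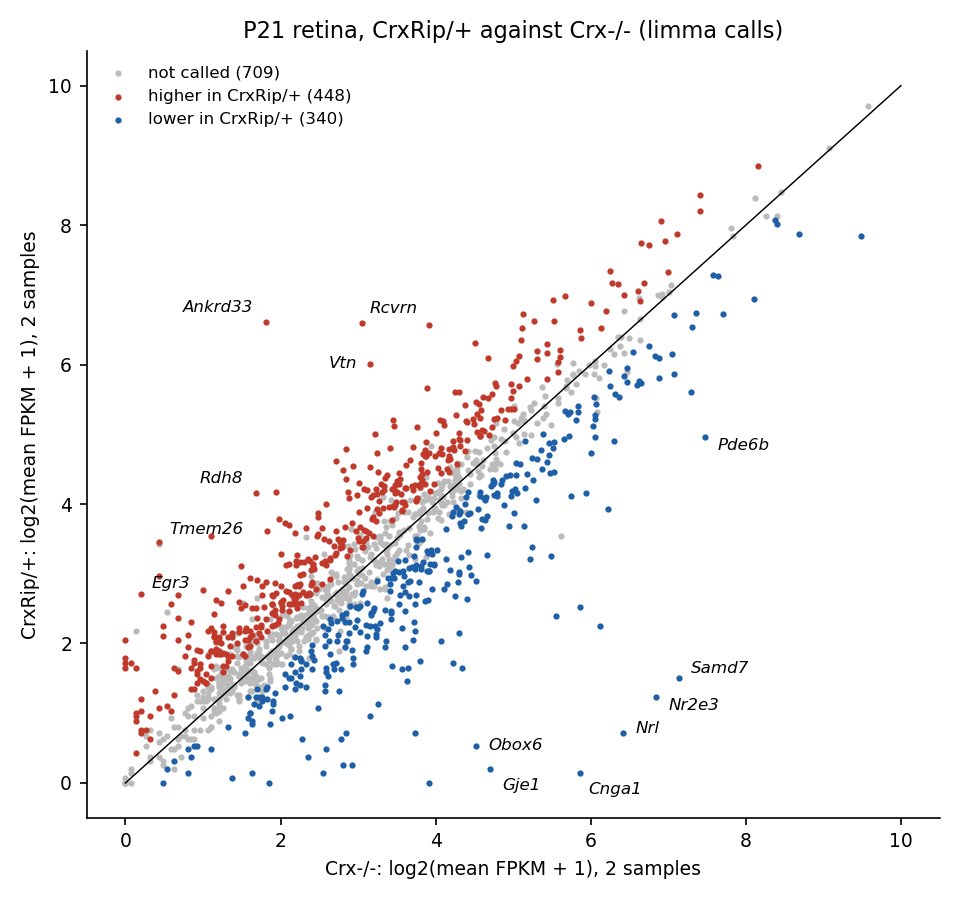
Each point is 1 of the 1497 genes of the P21 table, with log2(mean FPKM + 1) of the 2 Crx-/- samples on the x axis and of the 2 CrxRip/+ samples on the y axis, coloured by the limma call, and the line marks equal levels. Samd7, Nr2e3, Nrl and Cnga1 lie farthest below the line and Ankrd33 farthest above it among the called genes.

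Crx itself checks the labels only in part, because the table gives 1 value for the whole transcript and does not separate the normal from the mutant copy or the deleted from the remaining sequence. Crx was at 310.9 and 275.1 FPKM in CrxRip/+, at 167.9 and 171.4 in Crx-/- and at 350.7 and 343.9 in wild type. The CrxRip/+ samples lay between the Crx-/- and the wild-type samples and overlapped with neither, but the difference of -0.25 from wild type was not called (limma adjusted p = 0.104). Crx was 0.78 ± 0.13 (SE, n = 2 per group) higher in CrxRip/+ than in Crx-/- (limma adjusted p = 0.00114).

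The genes on either side of Crx differed between the mutants in opposite directions. Against wild type, limma called Obox6 higher in Crx-/- and not in CrxRip/+, and Crxos1 higher in CrxRip/+ and not in Crx-/-. RefSeq (GRCm38.p6) places Obox6, a homeobox gene, and Crxos, the opposite-strand gene that the table names Crxos1, as the nearest gene models around Crx. Obox6 was at 23.0 and 21.0 FPKM in Crx-/- and at 0.4 and 0.5 in CrxRip/+, with 0.2 and 0.4 in wild type, a difference of -3.99 (limma adjusted p = 2.53e-07). Crxos1 was at 16.3 and 8.3 FPKM in CrxRip/+ against 3.1 and 3.2 in Crx-/- and 3.0 and 2.5 in wild type, a difference of 1.61 (limma adjusted p = 8.02e-04). Crxos1 was also above wild type in CrxRip/Rip, at 10.3 and 10 FPKM, and in Nrl-/-, at 23.4 and 22.6 FPKM, which lay above both CrxRip/+ samples. The labels describe libraries that mark the strand, but whether counting used it is not given in the sources used here, so reads of Crxos1 and Crx may not be separate.

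Of the 17 photoreceptor transcription factors on the list, 12 stood in the table. Of these, 8 were lower in CrxRip/+ and 2 higher, and the median difference was -0.74. Nrl, the switch to the rod fate, was at 0.9 and 0.4 FPKM in CrxRip/+, at 87.2 and 82.0 in Crx-/- and at 466.1 and 427.6 in wild type. Nr2e3, which works with Nrl, was at 1.7 and 1.0 FPKM in CrxRip/+, at 118.0 and 110.0 in Crx-/- and at 223.7 and 198.8 in wild type. Samd7, a photoreceptor partner of the Polycomb silencing complex, was at 1.7 and 2.0 FPKM in CrxRip/+ and at 146.2 and 132.6 in Crx-/-, where it was above the 41.6 and 43.5 of wild type. For these 3 factors every Crx-/- sample was far above every CrxRip/+ sample. The differences were -5.71 ± 0.14 for Nrl, -5.63 ± 0.16 for Nr2e3 and -5.62 ± 0.10 for Samd7 (SE, n = 2 per group), with limma adjusted p of 6.86e-08, 9.58e-08 and 1.29e-08. As ratios of mean FPKM, Crx-/- was 84.4-fold higher for Nr2e3 and 75.4-fold for Samd7.

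Ankrd33, whose product holds back Crx activity in photoreceptors, went the other way. It was at 104.9 and 88.0 FPKM in CrxRip/+, at 2.8 and 2.2 in Crx-/- and at 78.2 and 71.2 in wild type. CrxRip/+ was 38.6-fold above Crx-/- in mean FPKM (log2 difference 4.80 ± 0.16 SE, limma adjusted p = 2.57e-07). Its samples were also above both wild-type samples, but that difference of 0.36 was not called (limma adjusted p = 0.0677). In CrxRip/Rip, which has no normal Crx copy either, Ankrd33 was at 52.9 and 71.7 FPKM, whereas Nrl was at 0.1 and 0.2, Nr2e3 at 0.0 in both samples and Samd7 at 0.0 and 0.1.

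The other factors that were lower in CrxRip/+ than in Crx-/- differed by less. Esrrb, a nuclear receptor of rods, was at 1.0 and 2.0 FPKM in CrxRip/+ and at 5.2 and 6.3 in Crx-/-, both under the 71.7 and 95.1 of wild type (difference -1.46). Rxrg, a nuclear receptor of cones, was at 14.4 and 19.3 against 33.7 and 30.6 FPKM, with 2.5 and 2.6 in wild type (difference -0.91). Rorb, which acts upstream of Nrl, was at 13 and 12.4 against 22.8 and 25 FPKM, with 25.5 and 34.3 in wild type (difference -0.86). Prdm1, which keeps precursors from the bipolar fate, was at 8.6 and 9.6 against 14.4 and 14.4 FPKM, with 3.9 and 3.8 in wild type (difference -0.61). Rxrg and Prdm1 were thus above wild type in both mutants. None of the 4 factors Esrrb, Rxrg, Rorb and Prdm1 overlapped between CrxRip/+ and Crx-/-, with limma adjusted p between 5.98e-04 and 0.00172.

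Otx2 was above wild type in both mutants and differed little between them. It was at 153.3 and 152.7 FPKM in CrxRip/+, at 211.6 and 186.8 in Crx-/- and at 81.0 and 80.1 in wild type. The difference of -0.38 ± 0.11 (SE) passed with a limma adjusted p of 0.0173, but without CrxRip/+ replicate 1 the p was 0.0584, without CrxRip/+ replicate 2 it was 0.059, without Crx-/- replicate 1 it was 0.114 at a difference of -0.29, and the authors' deposited adjusted p was 0.0557. Mef2c, at 1.2 and 1.0 against 1.0 and 1.0 FPKM, was far under its wild-type 17.4 and 16 in both mutants and was not called between them, nor was Sall3, a factor of cones and horizontal cells, at 0.9 and 1.0 against 0.6 and 0.9 FPKM.

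All 14 listed rod genes were in the table, 10 lower and 4 higher in CrxRip/+, with a median difference of -0.83. Cnga1, the rod subunit of the light-gated channel, was at 0.2 and 0.0 FPKM in CrxRip/+, at 59.6 and 54.3 in Crx-/- and at 244.5 and 228.2 in wild type. Its difference of -5.72 ± 0.11 (SE, limma adjusted p = 1.29e-08) was the largest of the 1497 genes. Cngb1, the other channel subunit, was near 0 in both mutants, at 0.3 and 0.2 against 0.6 and 0.5 FPKM (difference -0.31, limma adjusted p = 0.0396). Cngb1 was not called without CrxRip/+ replicate 2 (adjusted p = 0.142), Crx-/- replicate 1 (adjusted p = 0.164) or Crx-/- replicate 2 (adjusted p = 0.0708).

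The catalytic subunits of the rod phosphodiesterase were lower in CrxRip/+ as well. Pde6b, the catalytic beta subunit of the phosphodiesterase, was at 24.9 and 35.2 against 189.6 and 163.3 FPKM (difference -2.53), and the alpha subunit Pde6a at 19.2 and 22.7 against 46.2 and 43.8 FPKM (difference -1.07). The inhibitory subunit Pde6g was higher instead, at 241.5 and 184.1 against 108.6 and 89.8 FPKM (difference 1.09, limma adjusted p = 5.76e-04). All 3 genes of the rod phosphodiesterase were under wild type in both mutants, where Pde6g was at 1345.4 and 1245.8 FPKM.

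Gnat1, the alpha subunit of rod transducin, was nearly absent from both mutants. It was at 4.6 and 1.1 FPKM in CrxRip/+ and at 10 and 8.4 in Crx-/-, beside 4373.3 and 4352.0 in wild type. The difference of -1.57 (limma adjusted p = 0.00752) was -0.86 without CrxRip/+ replicate 2, and was not called without Crx-/- replicate 1 (adjusted p = 0.0544) or when only the 4 samples were fitted (adjusted p = 0.0702). The beta subunit Gnb1 was at 65.8 and 68.3 against 123.5 and 109.3 FPKM, and the gamma subunit Gngt1 was higher, at 254.8 and 210.8 against 146.6 and 128.7 FPKM. Rod transducin subunits thus did not move together, with differences of -0.78 for Gnb1 and 0.75 for Gngt1.

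Further rod genes were lower in 3 cases and higher in 2. Sag, rod arrestin, was at 231.2 and 234.7 against 440.6 and 379.8 FPKM, Slc24a1, the rod sodium, calcium and potassium exchanger, at 2.5 and 1.7 against 6.6 and 5.1, and the phosphatase Ppef2 at 17.6 and 15.2 against 31.9 and 29.0 FPKM. Nxnl1, which encodes a cone survival factor secreted by rods, was higher at 13 and 14.3 against 4.7 and 4.5 FPKM (difference 1.39), as was Reep6, a membrane-trafficking protein of rods, at 12.3 and 16.6 against 7.7 and 7.7 FPKM (difference 0.81).

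Cone genes split evenly. Of 13 in the table, 5 were higher, 5 lower and 3 not called, with a median difference of 0.00. Arr3, cone arrestin, was at 6.5 and 10.6 FPKM in CrxRip/+, at 47.2 and 40.2 in Crx-/- and at 122.0 and 118.2 in wild type (difference -2.26, limma adjusted p = 6.88e-05). Cnga3, the cone channel subunit, was at 0.2 and 0.2 against 6.0 and 6.0 FPKM (difference -2.54, and -4.35 with 0.1 in place of 1 added to the FPKM), and Ccdc136, a coiled-coil protein, at 29.9 and 30.2 against 66.2 and 64.5 FPKM (difference -1.10). In Crx-/- Cnga3 was above its wild-type 3.6 and 3.7 FPKM. Both cone opsins were nearly absent from both mutants, Opn1sw at 1.2 and 0.9 against 2.7 and 2.7 FPKM, with 164.5 and 141.0 in wild type (difference -0.86), and Opn1mw at 0.7 and 0.7 against 0.6 and 0.8 FPKM, with 103.8 and 97.4 in wild type and no call.

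The cone phosphodiesterase was higher in CrxRip/+. Pde6c, its catalytic subunit, was at 76.3 and 118.9 against 45.2 and 44.8 FPKM, with 30.9 and 33.3 in wild type (difference 1.07, limma adjusted p = 0.00603). Pde6h, its inhibitory subunit, was at 37.5 and 149.9 against 14.9 and 13.3 FPKM, with 86.3 and 78.4 in wild type (difference 2.34, limma adjusted p = 0.0048). The groups did not overlap, but CrxRip/+ replicate 2 lay far above replicate 1, and without it the difference in Pde6h was 1.35. With only the 4 samples in the fit, Pde6h was not called (adjusted p = 0.0569).

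Cone transducin differed less. Gngt2, its gamma subunit, was at 500.8 and 421.3 FPKM in CrxRip/+ and at 307.7 and 259.6 in Crx-/-, both above the 52.6 and 48.8 of wild type (difference 0.70). Gnat2, the alpha subunit, was at 157.8 and 162.0 against 131.8 and 121.8 FPKM (difference 0.33, limma adjusted p = 0.0297), and Gnb3, the beta subunit, was lower at 256.0 and 257.5 against 364.6 and 312.0 FPKM (difference -0.39). Gnat2 was not called when any 1 of the 4 samples was left out (adjusted p between 0.0573 and 0.144). Gnb3 lost its call without CrxRip/+ replicate 1 (adjusted p = 0.111), CrxRip/+ replicate 2 (adjusted p = 0.102) or Crx-/- replicate 1 (adjusted p = 0.217), and Gngt2 without CrxRip/+ replicate 1 (adjusted p = 0.0639) or Crx-/- replicate 2 (adjusted p = 0.0779). Otop3, a proton channel gene, was at 5.3 and 4.8 against 1.7 and 1.8 FPKM, and its call was lost without Crx-/- replicate 1 (adjusted p = 0.0525). The cone channel subunit Cngb3, at 16.7 and 15.2 against 13.2 and 12.3 FPKM, and the cone exchanger Slc24a2, at 16 and 24.5 against 22.2 and 23.8 FPKM, were not called. Slc24a2 was called lower without CrxRip/+ replicate 2 (difference -0.50, adjusted p = 0.0285). Without 1 of the 4 samples, 3 or 4 cone genes were called higher and 4 or 5 lower.

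Of 17 genes of the light response that rods and cones share, 9 were higher, 4 lower and 4 not called, with a median difference of 0.27. Rcvrn, recoverin, a calcium sensor of photoreceptors, was at 131.1 and 60.2 FPKM in CrxRip/+, at 7.5 and 7.0 in Crx-/- and at 531.0 and 520.9 in wild type. The CrxRip/+ samples differed from each other but both lay far above Crx-/-, 13.2-fold in mean FPKM (log2 difference 3.45 ± 0.40 SE, limma adjusted p = 2.33e-04). Guca1b, an activator of guanylate cyclase, was at 33.1 and 38.9 against 10 and 9.9 FPKM, with 548.9 and 526.7 in wild type (difference 1.75).

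Enzymes of the retinoid cycle, which restores the chromophore of the visual pigment, were among those that rose. Rdh8, the retinol dehydrogenase of outer segments, was at 13.8 and 19.9 against 2.4 and 2.0 FPKM, with 68.3 and 61.3 in wild type (difference 2.46, limma adjusted p = 1.68e-05). Abca4, the retinoid transporter of disc membranes, was at 69.7 and 68.2 against 33.1 and 32.1 FPKM (difference 1.06), and Rdh12, another retinol dehydrogenase, at 30.7 and 20.4 against 17.1 and 13.8 FPKM (difference 0.67). For each of the 3 genes CrxRip/+ lay between Crx-/- and wild type, but Rdh12 was not called without CrxRip/+ replicate 1 (adjusted p = 0.0713) or Crx-/- replicate 2 (adjusted p = 0.106).

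The potassium channel subunit Kcnv2 was also higher, at 44.8 and 39.1 against 19.9 and 19.8 FPKM (difference 1.04). Pdc, phosducin, which binds the transducin beta and gamma subunits, fell the most of the 4 lower genes. It was at 244.7 and 211.2 FPKM in CrxRip/+, at 764.0 and 665.6 in Crx-/- and at 1210.3 and 1380.1 in wild type (difference -1.65). Rgs9, which speeds the shut-off of transducin, was at 47.8 and 43.3 against 84.4 and 78.3 FPKM, and its anchor Rgs9bp was higher, at 30.6 and 33.2 against 21.8 and 22.7 FPKM. Aipl1, a chaperone of phosphodiesterase, at 314.9 and 245.0 against 352.8 and 321.5 FPKM, and Unc119, at 360.3 and 347.7 against 367.7 and 329.3 FPKM, were not called. Aipl1 was called lower without CrxRip/+ replicate 1 (difference -0.46, adjusted p = 0.0251), and Rgs9bp was not called without Crx-/- replicate 1 (adjusted p = 0.0525). With a sample left out, 7 to 9 shared genes were called higher and 2 to 4 lower, the lowest number without Crx-/- replicate 2.

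Outer segment, cilium and matrix genes were mostly higher in CrxRip/+. Of the 19 listed, 16 were in the table, 10 of them higher and 3 lower, with a median difference of 0.63 beside 0.06 for all genes. Tulp1, which carries proteins toward the outer segment, was at 255.9 and 274.5 FPKM in CrxRip/+, at 114.0 and 124.3 in Crx-/- and at 273.3 and 255.5 in wild type, so the CrxRip/+ samples lay beside the wild-type samples (difference 1.15 ± 0.14 SE, limma adjusted p = 3.06e-04). Cdhr1, a cadherin at the base of the discs, was at 226.3 and 210.2 against 125.8 and 121.6 FPKM, with 213.3 and 208.9 in wild type, and Rpgrip1, of the connecting cilium, at 153.1 and 129.9 against 78.7 and 82.8 FPKM, with 141.4 and 158.6 in wild type. These 3 genes were near wild type in CrxRip/+ and lower in Crx-/-.

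Other members rose too. Impg2, a proteoglycan of the matrix around the outer segment, was at 149.8 and 91.7 against 46.5 and 42.9 FPKM, with 101.4 and 91.4 in wild type (difference 1.37). Gm11744, which RefSeq names Prcd, a disc protein, was at 51.8 and 43.5 against 20.2 and 17.1 FPKM, with 122.6 and 108.7 in wild type (difference 1.31). Fscn2, an actin bundler of photoreceptors, was near 0 in both, at 1.6 and 1.0 against 0.2 and 0.1 FPKM, beside 40.2 and 36.8 in wild type.

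The 3 lower members included a disc rim protein. Rom1 was at 123.7 and 119.0 FPKM in CrxRip/+, at 296.5 and 252.4 in Crx-/- and at 879.8 and 818.3 in wild type (difference -1.17, limma adjusted p = 1.6e-04). Rp1, a microtubule protein of the axoneme, was at 54.4 and 49.9 against 102.3 and 96.3 FPKM, and Impg1, the other matrix proteoglycan, at 24.4 and 34.7 against 48.6 and 50 FPKM. Prph2, the partner of Rom1 at the disc rim, was at 338.8 and 329.6 against 296.1 and 255.1 FPKM and was not called (difference 0.28, adjusted p = 0.0545), nor was Rbp3, the retinoid carrier of the matrix, at 767.9 and 896.5 against 713.9 and 806.5 FPKM. Without Crx-/- replicate 1 Prph2 was called higher (adjusted p = 0.0373). Impg1 was not called without CrxRip/+ replicate 1 (adjusted p = 0.145), Crx-/- replicate 1 (adjusted p = 0.0919) or Crx-/- replicate 2 (adjusted p = 0.104).

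Synapse genes of photoreceptors were higher in CrxRip/+ in 7 of the 9 listed genes that the table held, of 13 listed, and lower in 1, with a median difference of 0.62. Slc17a7, the vesicular glutamate transporter of the photoreceptor terminal, was at 356.5 and 329.6 FPKM in CrxRip/+, at 171.0 and 166.1 in Crx-/- and at 366.1 and 363.0 in wild type (difference 1.02 ± 0.11 SE, limma adjusted p = 1.8e-04). Mpp4, a scaffold of the terminal, was at 139.2 and 112.1 against 51.2 and 48.8 FPKM, with 173.6 and 160.5 in wild type (difference 1.30). Elfn1, the adhesion protein by which rods contact rod bipolar cells, was at 19.0 and 22.5 against 9.8 and 11.2 FPKM, with 19.4 and 18.3 in wild type, and Elfn2, its relative in cones, at 26.6 and 31.3 against 16.3 and 18.9 FPKM, with 8.1 and 9.3 in wild type.

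The other 3 that rose were the calcium channel Cacna1f, at 45.0 and 44.8 against 29.0 and 31.5 FPKM, Lrit2, at 58.0 and 50.7 against 35.7 and 34.4 FPKM, and Cplx4, a complexin of ribbon synapses, at 127.8 and 126.8 against 90.2 and 80.6 FPKM. Nxnl2, at 3.7 and 4.4 against 7.9 and 6.0 FPKM, was the 1 lower gene. It is a nucleoredoxin-like gene related to Nxnl1, and no synapse gene as such, but it stood on this list and is counted in it. Cabp4, the calcium sensor of the channel, at 14.1 and 17.6 against 13.1 and 11.7 FPKM, was not called. In every fit with 1 of the 4 samples left out, 6 or 7 synapse genes were called higher and 1 lower; Lrit2 missed the threshold without CrxRip/+ replicate 1 (adjusted p = 0.0512) or Crx-/- replicate 2 (adjusted p = 0.0515), while Cabp4 was called higher without CrxRip/+ replicate 1 (difference 0.47, adjusted p = 0.0442). Summed over the 9 genes, the levels were 789.9 and 739.8 FPKM in CrxRip/+, 424.2 and 409.2 in Crx-/- and 1037.6 and 985.6 in wild type.

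**Figure D2:**
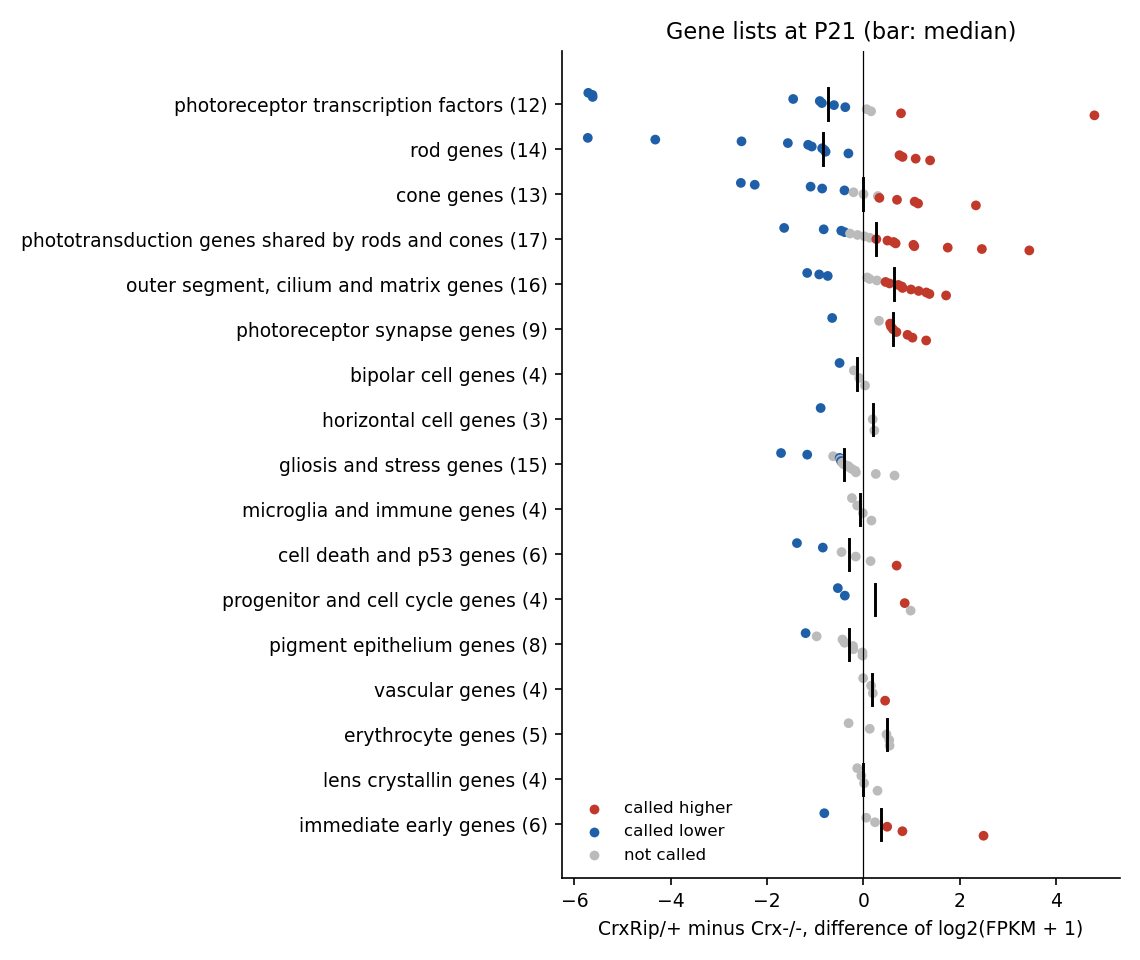
Each point is 1 gene of a list that the P21 table holds, with the difference of log2(FPKM + 1), CrxRip/+ minus Crx-/-, on the x axis, the number of genes in parentheses, colours for the limma call and a black bar at the list's median. The bar lies at -0.74 for transcription factors and -0.83 for rod genes, at 0.00 for cone genes, and at 0.63 and 0.62 for outer segment and synapse genes.

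Some of the genes with the largest differences had short Crx-type sequences before their starts and some had none, and 6 windows of RefSeq promoters (GRCm38.p6) are shown to let the reader see them. The motifs TAATCC and TAAGCC were searched on both strands in the 250 bases before each start, each on its own, so that copies that overlap count for both. Of the 24 genes with the largest called changes, 14 had a promoter entry, 8 of them with a motif and 6 with none (Nr2e3, Krt73, Ebpl, Rbp4, Fam107b and Tmem26). Capitals mark the copy of the motif around which the window was taken, written GGATTA or GGCTTA where it lies on the opposite strand, and each window is read 5′ to 3′ in the direction of its gene.
Samd7, lower in CrxRip/+, chr3:30746120-30746193, plus strand: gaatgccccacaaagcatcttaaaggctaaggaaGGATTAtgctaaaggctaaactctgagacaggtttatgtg
Cnga1, lower in CrxRip/+, chr5:72642941-72643002, minus strand: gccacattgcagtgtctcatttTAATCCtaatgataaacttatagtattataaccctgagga
Nrl, lower in CrxRip/+, chr14:55524269-55524342, minus strand: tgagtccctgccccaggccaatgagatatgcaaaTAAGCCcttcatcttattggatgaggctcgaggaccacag
Pde6h, higher in CrxRip/+, chr6:136954426-136954499, plus strand: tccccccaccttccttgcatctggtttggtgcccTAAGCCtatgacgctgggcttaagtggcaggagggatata
Rdh8, higher in CrxRip/+, chr9:20818281-20818354, plus strand: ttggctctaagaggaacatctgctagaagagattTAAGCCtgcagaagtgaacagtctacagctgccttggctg
Vtn, higher in CrxRip/+, chr11:78498870-78498917, plus strand: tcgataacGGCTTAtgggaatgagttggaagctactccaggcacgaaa

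The sites shown begin 139 bases before the start for Samd7, 228 for Cnga1, 56 for Nrl, 63 for Pde6h, 179 for Rdh8 and 242 for Vtn. The Pde6h window holds a second copy of TAAGCC in lower case, on the opposite strand 47 bases before the start. Matching letters were thus found before genes of either direction. Of all RefSeq promoters, 6.25% held TAATCC and 8.2% held TAAGCC. Among promoters of the 1162 table genes with an entry, the shares were 7.92% and 10.6%. TAATCC stood in 8.05% of the promoters of higher genes, 7.78% of those of lower genes and 7.89% of those of uncalled genes, and TAAGCC in 12.3%, 8.68% and 10.3%. The letters describe these windows and do not show that a factor binds there.

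Among the 12 genes with the largest called differences below Crx-/-, several were nearly absent from wild type and CrxRip/+ alike and present in Crx-/-. Gje1, a connexin-like gap junction gene, was at 0.1 and 0.2 FPKM in CrxRip/+, at 27.3 and 22.8 in Crx-/- and at 0.1 and 0.1 in wild type (difference -4.50, limma adjusted p = 6.86e-08). Krt73, a keratin, was at 15.6 and 12.6 FPKM in Crx-/- and is listed at 0 in both CrxRip/+ and both wild-type samples. Smoc2, a matrix protein, was at 0.6 and 0.7 against 13.2 and 11.3 FPKM, with 0.5 and 0.6 in wild type. Together with Obox6, these genes had a level above 10 FPKM in Crx-/- alone among the 3 genotypes.

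Rbp4, a retinol carrier, was at 2.8 and 5.7 FPKM in CrxRip/+, at 48.6 and 43.4 in Crx-/- and at 0.2 and 0.3 in wild type (difference -3.22). Ebpl, related to the sterol isomerase Ebp, was at 5.1 and 4.4 against 61.7 and 52.7 FPKM, with 25.7 and 23.4 in wild type (difference -3.34). Glb1l2, a galactosidase-like gene, was at 2.2 and 2.1 against 20.2 and 18.3 FPKM, with 52.7 and 47.4 in wild type (difference -2.68). Crx-/- exceeded wild type in Rbp4 and Ebpl and not in Glb1l2, while CrxRip/+ was under Crx-/- in all 3.

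Among the 12 genes that rose most, Vtn, vitronectin, a matrix adhesion protein, was at 59.7 and 67.1 FPKM in CrxRip/+, at 8.5 and 7.3 in Crx-/- and at 317.3 and 286.9 in wild type (difference 2.86 ± 0.11 SE, limma adjusted p = 5.23e-07). Fam107b was at 28.9 and 24.3 against 6.7 and 5.6 FPKM, with 23.5 and 21.8 in wild type, and Ccdc113, of motile and primary cilia, at 5.9 and 5.0 against 0.5 and 0.7 FPKM, with 4.9 and 4.1 in wild type. For both genes the CrxRip/+ samples lay just above the wild-type samples, and the difference from wild type was not called. It was 0.22 for Fam107b (limma adjusted p = 0.223) and 0.23 for Ccdc113 (limma adjusted p = 0.322).

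A further set was higher in CrxRip/+ than in either Crx-/- or wild type. Tmem26 was at 10.9 and 9.0 FPKM in CrxRip/+, at 0.3 and 0.4 in Crx-/- and at 0.7 and 0.6 in wild type (difference 3.02). Clca3, of the calcium-activated chloride channel family, was at 8.5 and 12.8 against 1.3 and 1.0 FPKM, with 2.9 and 2.3 in wild type, and the protease gene Gzmm at 17.8 and 16.3 against 3.0 and 2.7 FPKM, with 9.0 and 7.4 in wild type. Trim43c was at 6.9 and 6.7 against 0.3 and 0.4 FPKM (difference 2.53, and 3.95 with 0.1 added in place of 1), but it belongs to a family of near-identical genes, so reads may be split among copies. High levels of these genes were not limited to CrxRip/+. In Nrl-/-, Clca3 was at 38.8 and 39.3 FPKM and Gzmm at 43 and 40.9, above both CrxRip/+ samples. Tmem26, at 3.2 and 3.5 FPKM, and Trim43c, at 1.0 and 0.9, were below them there. In CrxRip/Rip, Tmem26 was at 13.2 and 7.7 FPKM, Trim43c at 5.6 and 5.1, Gzmm at 11.1 and 10.3 and Clca3 at 1.0 and 0.9.

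**Figure D3:**
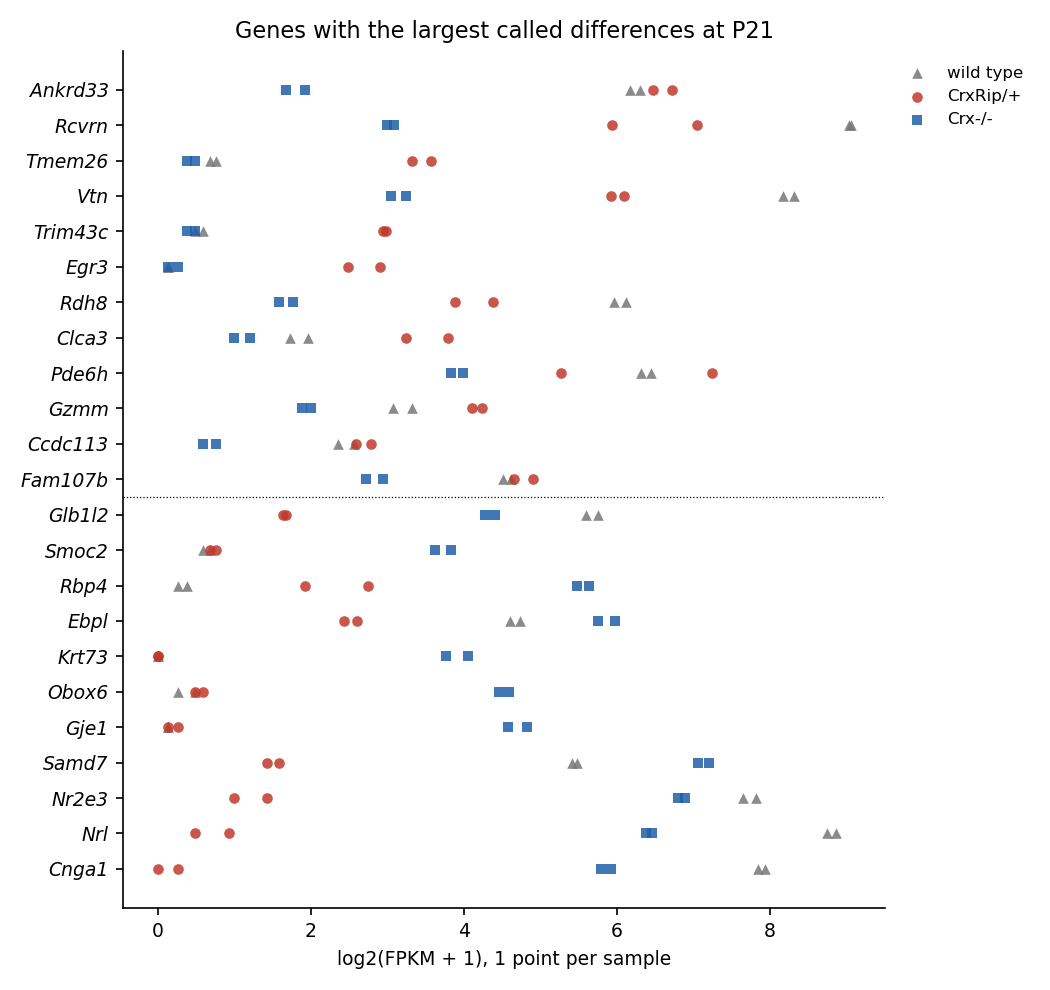
The x axis gives log2(FPKM + 1) with 1 point per sample (wild type, CrxRip/+ and Crx-/-, 2 each) for the 12 genes with the largest called rise, above the dotted line, and 11 of the 12 with the largest called fall, below it. Gje1, Obox6, Krt73 and Smoc2 lie near 0 in wild type and CrxRip/+, and Pde6h shows a wide gap between the 2 CrxRip/+ samples.

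Immediate early genes, which neurons switch on within minutes of activity or stress, were mixed. Of 14 listed, 6 were in the table, 3 higher and 1 lower. Egr3 was at 6.5 and 4.6 FPKM in CrxRip/+, at 0.1 and 0.2 in Crx-/- and at 0.1 and 0.1 in wild type (difference 2.50, and 4.51 with 0.1 added in place of 1). Nr4a1 was at 22.1 and 27.4 against 13.3 and 13.9 FPKM, and Jun at 12.4 and 16.8 against 9.1 and 10.9 FPKM. Fos was lower, at 12.9 and 12.8 against 22.8 and 23.8 FPKM. Egr1, at 64.0 and 54.5 against 54.3 and 59.0 FPKM, was not called, although both mutants were far above its wild-type 3.8 and 3.8. Jun was not called without CrxRip/+ replicate 2 (difference 0.29, adjusted p = 0.154) or Crx-/- replicate 1 (adjusted p = 0.17). The genes of this group thus did not share a direction.

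Genes of gliosis and stress depended on which CrxRip/+ sample was read. Of 24 listed, 15 were in the table, 0 called higher and 4 lower by limma (0 and 5 at an unadjusted p under 0.05, 1 and 5 by the authors' deposited adjusted p), with a median difference of -0.41. Over all genes limma called 29.9% higher and 22.7% lower, so the 4 lower calls do not set this list apart. Fabp7, a fatty acid carrier of immature and reactive glia, was at 56.2 and 39.2 FPKM in CrxRip/+, at 162.7 and 149.3 in Crx-/- and at 2.0 and 1.4 in wild type (difference -1.71, limma adjusted p = 0.001). The metallothionein Mt2 was at 11.2 and 30.4 against 51.4 and 35.8 FPKM, and Gfap, the filament of reactive Müller glia, at 15.8 and 21.3 against 26.8 and 24.6 FPKM, with 4.5 and 3.7 in wild type. Hmox1, a stress-induced haem oxygenase, was low throughout, at 1.1 and 1.6 against 2.6 and 2.0 FPKM.

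The 15 genes summed to 156.4 FPKM in CrxRip/+ replicate 1 and 226.3 in replicate 2, to 377 and 329.5 in Crx-/- and to 61.4 and 60.6 in wild type. Serpina3n was at 3.0 and 9.2 FPKM in CrxRip/+ against 9.3 and 6.7 in Crx-/-, and the complement gene C4b at 1.4 and 4.8 against 3.7 and 3.6 FPKM, so that replicate 1 lay below and replicate 2 within or above the Crx-/- samples. Without CrxRip/+ replicate 2, 11 of the 15 were called lower with a median of -0.69. Without CrxRip/+ replicate 1, 2 were called higher and 1 lower with a median of 0.01, and without Crx-/- replicate 1, 1 was called lower. Gfap (limma adjusted p = 0.0487) lost its call without CrxRip/+ replicate 1 (adjusted p = 0.261), without Crx-/- replicate 1 (adjusted p = 0.202), without Crx-/- replicate 2 (adjusted p = 0.106), with 0.1 or 0.5 added in place of 1 (adjusted p = 0.0591 and 0.0538) and in the 4-sample fit (adjusted p = 0.0878). Mt2 and Hmox1 lost theirs without CrxRip/+ replicate 1 (adjusted p = 0.0728 and 0.0876) and without Crx-/- replicate 1 (adjusted p = 0.171 and 0.113), and Fabp7 kept its call in every fit that was run.

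**Figure D4:**
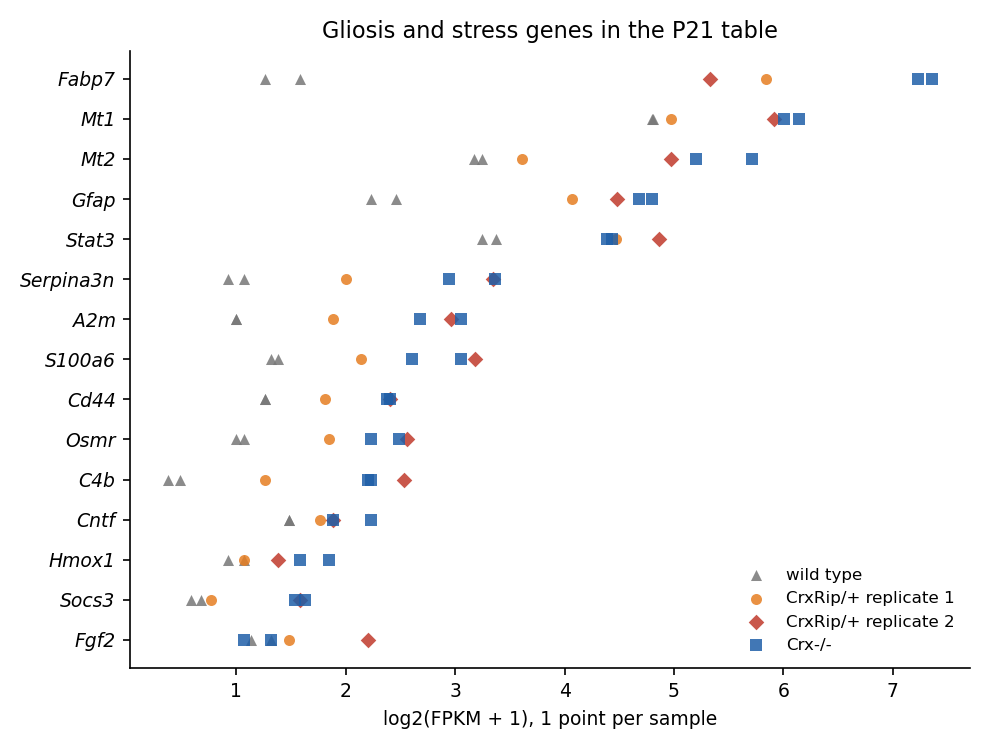
The x axis gives log2(FPKM + 1) of the 15 gliosis and stress genes with 1 point per sample for wild type, CrxRip/+ (the 2 replicates in their own colours) and Crx-/-. Replicate 2 of CrxRip/+ lies to the right of replicate 1 for most genes and reaches the Crx-/- points for Serpina3n and C4b, while both CrxRip/+ points of Fabp7 lie left of Crx-/-.

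Markers of other cells were few in the table and gave few calls. Microglia and immune genes had 4 of 24 in the table and 0 called by limma (1 at an unadjusted p under 0.05, 0 in the authors' deposited table), with summed levels of 14 and 24.4 FPKM in CrxRip/+, 21.1 and 17.5 in Crx-/- and 8.7 and 8.9 in wild type. Of 23 bipolar genes 4 were in the table, and Lhx4, a factor of cone bipolar cells and young photoreceptors, was the 1 called, at 6.1 and 7.2 against 9.6 and 9.9 FPKM. The uncalled Cabp5, at 56.9 and 47.1 against 57.5 and 52.6 FPKM, and Prkca, at 28.4 and 28.1 against 30.0 and 35.3 FPKM, are markers of bipolar cells. Of 10 horizontal cell genes 3 were in the table, and Sphkap was lower, at 54.2 and 48.7 against 101.2 and 90.8 FPKM, with 53.9 and 52.0 in wild type, while Calb1, at 17.6 and 14.6 against 14.3 and 13.5 FPKM, was not called.

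Müller glia genes had 2 of 17 in the table, with 0 called by limma, 1 lower at an unadjusted p under 0.05 and 1 lower by the authors' deposited adjusted p. Crym was at 30.8 and 46.8 against 72.2 and 60.8 FPKM (difference -0.79, limma adjusted p = 0.0516, and 1.08e-07 in the authors' deposited table) and Sox9 at 3.0 and 4.1 against 3.2 and 3.7 FPKM. Crym was called lower by limma without CrxRip/+ replicate 2 (difference -1.08, adjusted p = 0.0294), with median-of-ratios scaling (adjusted p = 0.0314) and with the filter on group means at 5 FPKM (adjusted p = 0.0393). The amacrine list had Sst alone of 21 genes, at 1.9 and 3.6 against 1.8 and 1.6 FPKM, not called with all samples and called higher without CrxRip/+ replicate 1 (difference 0.77, adjusted p = 0.00279). The ganglion cell and sex-linked lists had none of 15 and of 5 genes in the table, and these were not analysed here. Pigment epithelium genes, which mark tissue attached to the retina at dissection, had 8 of 14 in the table and summed to 56.6 and 48.5 FPKM in CrxRip/+, 91.2 and 55.1 in Crx-/- and 11.8 and 24.6 in wild type. Limma called 1 of them lower (2 at an unadjusted p under 0.05), and the authors' deposited adjusted p 4. The 1 was the melanin enzyme gene Dct, at 6.3 and 2.8 against 12.8 and 9.6 FPKM (limma adjusted p = 0.0302), which was not called without CrxRip/+ replicate 2 (adjusted p = 0.172), without Crx-/- replicate 1 (adjusted p = 0.163) or without Crx-/- replicate 2 (adjusted p = 0.0668). Rbp4, named above, is also made by pigment epithelium, and the part of attached tissue in its difference was not tested.

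Blood and lens genes gave 0 calls by limma among 5 and 4 members, also at an unadjusted p under 0.05 and by the authors' deposited adjusted p. Vascular genes gave 1 among 4, Cldn5, a tight junction gene of endothelium, at 4.4 and 6.3 against 3.9 and 3.3 FPKM (difference 0.45, limma adjusted p = 0.0348). Cldn5 was not called without CrxRip/+ replicate 2 (difference 0.23, adjusted p = 0.184), Crx-/- replicate 1 (adjusted p = 0.0614) or Crx-/- replicate 2 (adjusted p = 0.179). Cell death genes had 6 of 20 in the table, of which limma called 1 higher and 2 lower. The p53 targets Cdkn1a, at 2.7 and 4.6 against 11.3 and 10.4 FPKM (difference -1.38), and Gadd45a, at 5.1 and 5.8 against 11.7 and 9.5 FPKM (difference -0.84), were lower. Of 4 progenitor and cell cycle genes in the table, of 20 listed, the Notch ligand Dll1 was higher, at 8.3 and 8.2 against 4.0 and 4.2 FPKM, and 2 were lower, the cyclin Ccna2, at 7.4 and 5.9 against 9.7 and 10.3 FPKM, and the receptor Notch1, at 4.0 and 4.6 against 5.2 and 6.7 FPKM (difference -0.38, limma adjusted p = 0.0448). The remaining gene was not called by limma. At an unadjusted p under 0.05, and also by the authors' deposited adjusted p, 2 of the 4 were higher and 2 lower. Notch1 was not called without CrxRip/+ replicate 1 (adjusted p = 0.178), CrxRip/+ replicate 2 (adjusted p = 0.0524) or Crx-/- replicate 2 (difference -0.23, adjusted p = 0.268).

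The 2 CrxRip/+ samples were less alike than the 2 Crx-/- samples. They differed by more than 2-fold on the log2(FPKM + 1) scale for 42 genes, against 3 genes in Crx-/-, with replicate 2 higher for 22 and replicate 1 for 20. The largest difference between the groups without a call was -3.01 for Ftl1, the ferritin light chain, at 20.7 and 0.7 against 52.4 and 43.8 FPKM (limma adjusted p = 0.12). Gm5506, a copy of an enolase gene, was at 19.4 and 0.2 against 0.3 and 0.4 FPKM. Both have near-identical copies in the genome, and how reads were shared among copies is not given in the sources used here.

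The same comparison at P2, when rods are still being born, was set beside P21 for the 198 genes that stand in both tables. The P2 table was normalized on its own, so each age was fitted alone and the ages were not tested against each other. At P2, 91 of its 566 genes were higher (16.1%) and 71 lower (12.5%) in CrxRip/+, and the samples did not overlap for 236 genes above (41.7%) and 150 below (26.5%). Of the 198 shared genes, 16 were higher at both ages, 36 lower at both, and 8 were called in opposite directions. The tables had been selected for differences, so these counts describe the genes deposited at both ages.

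Some of the large P21 differences were already present at P2 and others were not. Nrl was at 63 and 73.1 FPKM in CrxRip/+ and at 73 and 81.6 in Crx-/- at P2 (difference -0.18, adjusted p = 0.355), Nr2e3 at 121.1 and 153.3 against 112.4 and 133.2 FPKM (difference 0.15, adjusted p = 0.506) and Rcvrn at 1.9 and 2.6 against 2.6 and 2.9 FPKM (difference -0.21, adjusted p = 0.384). For these 3 genes the groups overlapped or met at P2. Cnga1 was near 0 in both, at 0.1 and 0.1 against 0.6 and 0.9 FPKM, and was not called (adjusted p = 0.0724). Samd7 was at 4.4 and 3.8 FPKM in CrxRip/+ and at 29.3 and 38.9 in Crx-/- at P2 (difference -2.77, beside -5.62 at P21). Obox6 was at 0.2 and 0.3 against 7.8 and 8.4 FPKM (difference -2.86), Gje1 at 1.2 and 1.7 against 4.1 and 4.5 FPKM (difference -1.12) and Ankrd33 at 2.8 and 3.0 against 1.2 and 1.1 FPKM (difference 0.86). The synapse genes Slc17a7, at 5.4 and 5.5 against 3.9 and 3.7 FPKM, and Mpp4, at 2.6 and 3.0 against 1.5 and 1.7 FPKM, were also higher at P2. Pde6b, at 7.9 and 9.8 against 15 and 19.1 FPKM, was lower. From Samd7 to Pde6b, the 2 groups did not overlap at either age.

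Both cone phosphodiesterase genes and 1 of the 3 cone transducin genes, Gnat2, were called in opposite directions at P2 and P21, and the P21 call of Gnat2 was lost whenever 1 of the 4 samples was left out. At P2 Pde6c was at 0.4 and 0.6 FPKM in CrxRip/+ against 3.2 and 3.9 in Crx-/- (difference -1.60), Pde6h at 0.3 and 0.3 against 1.7 and 2.2 FPKM (difference -1.18) and Gnat2 at 1.5 and 1.6 against 6.7 and 7.2 FPKM (difference -1.64). The rod subunit Pde6g was at 9.8 and 13.4 against 19.5 and 23.1 FPKM (difference -0.83). At P21 all 4 were higher in CrxRip/+, as given above. Gngt2 was not called at P2, at 138.6 and 164 against 178.9 and 220.5 FPKM (difference -0.40, adjusted p = 0.122). Gnb3 and Cnga3, also cone genes, were lower at both ages, Gnb3 at 35.1 and 43.2 against 109.2 and 122.4 FPKM and Cnga3 at 0.5 and 0.6 against 3.0 and 3.1 FPKM at P2.

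**Figure D5:**
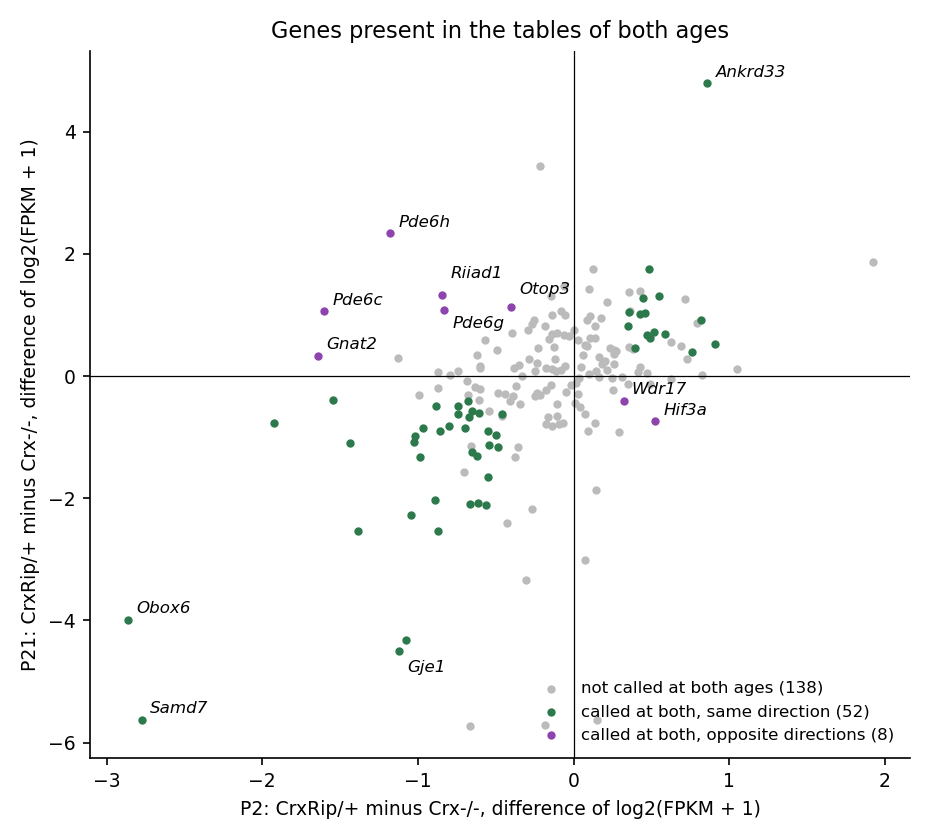
Each point is 1 of the 198 genes in both tables, with the difference of log2(FPKM + 1), CrxRip/+ minus Crx-/-, at P2 on the x axis and at P21 on the y axis, coloured by whether it was called at both ages and in the same direction. Samd7 and Obox6 show the largest falls at P2, -2.77 and -2.86, and lie far below 0 at P21 too, and Pde6h, Pde6c and Gnat2 lie below 0 at P2 and above 0 at P21.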

How the data were processed

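Whole mouse retina RNA was sequenced in 10 P21 samples, 2 in each of 5 genotypes, grouped by their titles. Per the file headers the sample values are FPKM, and in the deposited table they carry 1 decimal. The deposited table also holds the authors' adjusted p-values and, on a log2 scale, the authors' fold changes. DESeq is named in the submitters' processing notes. Aligner, counter, genome build and annotation were "not given in the sources used here". Depth is unknown, because FPKM keeps no read count, and no counting interval was computed. All 1497 P21 and 566 P2 genes have an authors' comparison with an adjusted p under 0.05 and a log2 fold change of 1 or more, up or down. The table is therefore chosen on the outcome, and the share of false calls is not known.

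The P21 fit ran limma (version 3.58.1, in R 4.3.3) on log2(FPKM + 1) of the 10 samples with 1 term per genotype, a variance trend and empirical Bayes moderation, with 5 residual and 3.06 prior degrees of freedom. P-values of CrxRip/+ minus Crx-/- were two-sided, with Benjamini-Hochberg adjustment across the 1497 genes, and an adjusted p under 0.05 made a call. The P2 table was fitted likewise. The fit was also run on simulated data, but its changed genes were drawn at random and not selected on the outcome. No conclusion about the calls given here is drawn from that run. By accession, 1485 of the 1497 genes matched RefSeq, and 18 symbols were replaced.

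Members, lists and alternatives were chosen with earlier results of these data known. The rule for naming genes takes photoreceptor transcription factors and neighbours of Crx, then the 12 strongest called rises and 12 strongest called falls among genes with a mean of at least 5 FPKM in the higher group and no overlap. From each list it adds the 5 called genes that changed most and the 2 uncalled genes with the highest mean, and it adds genes called in opposite directions at P2 and P21. A few genes that the rule takes are not reported here. The other list members, Ftl1 and Gm5506 were named after their values were seen. Alternatives were 2 other pseudocounts, a filter on low levels, a fit of the 4 samples, no trend, 2 rescalings, a replicate block, a fold limit, the authors' p and leaving out each sample.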

Additional observations from a re-analysis of the deposited data

Results flagged for a closer look

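Genes called at both ages with opposite signs of CrxRip/+ minus Crx-/- drew attention, and the difference between the ages was not tested. Of the 8, 6 were lower at P2 and higher at P21. The log2 differences at P21 and P2 were 0.33 and -1.64 for Gnat2, 1.14 and -0.40 for Otop3, 1.07 and -1.60 for Pde6c, 1.09 and -0.83 for Pde6g, 2.34 and -1.18 for Pde6h, and 1.32 and -0.85 for Riiad1. The other two went from higher at P2 to lower at P21. Hif3a, a hypoxia-inducible factor subunit, had -0.73 at P21 and 0.53 at P2, and Wdr17, a WD repeat gene, had -0.40 at P21 and 0.32 at P2. Hif3a was at 2.4 and 1.4 against 3.6 and 3.9 FPKM at P21 and at 1.9 and 2.3 against 1.1 and 1.2 at P2. Riiad1 was at 14.6 and 7.3 against 3.8 and 3.3 FPKM at P21 and at 1.6 and 1.2 against 3.4 and 3.2 at P2. Hif3a, Riiad1 and Wdr17 each lost their P21 call in at least 1 fit with a sample left out, Hif3a without CrxRip/+ replicate 2 (adjusted p = 0.072), Crx-/- replicate 1 (adjusted p = 0.0525) or Crx-/- replicate 2 (adjusted p = 0.0743), Riiad1 without Crx-/- replicate 2 (adjusted p = 0.0551) and Wdr17 without CrxRip/+ replicate 2 (adjusted p = 0.0957), Crx-/- replicate 1 (adjusted p = 0.103) or Crx-/- replicate 2 (adjusted p = 0.0522).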

How the results depend on the processing

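The counts of 448 higher and 340 lower genes stayed within 1.5 times under every alternative but a fold limit. Requiring a log2 difference of at least 1 as well gave 107 and 104. Leaving out each sample gave 345 to 416 higher and 247 to 322 lower. Rescaling by the median of ratios gave 386 and 413, lowered the median difference by 0.093 and moved the median of the cone list to -0.05. No called gene that the rule names changed sign under any alternative run. Whether samples with the same number belong together is not known. Deviations of CrxRip/+ and Crx-/- samples with the same number correlated at 0.039 over genes, and those of all pairs of genotypes at -0.299 to 0.235. With 2 samples per group a low correlation cannot exclude a shared batch. With the replicate block, 445 genes were higher and 337 lower, Gfap (adjusted p = 0.0626), Cldn5 (adjusted p = 0.0523) and Gnb3 (adjusted p = 0.0516) were not called, and Aipl1 (adjusted p = 0.029) and Prph2 (adjusted p = 0.0149) were called. Depth is unknown, and levels below 1 FPKM are limited by rounding.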
